A study of Mus musculus with 6 samples.

Results

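A set of 9 genes that mark lipid-associated macrophages was followed in mouse liver: Trem2, Tyrobp, Gpnmb, Lgals3, Cd63, Cd9, Fabp5, Lpl and Cd68. They were chosen by name, as every non-control spot of the scanner files annotated with one of these symbols, which gave 9 of the 27670 genes and 14 of the 41174 probes on the array. The livers came from male C57BL/6J mice that received 1 of 2 diets from 8 weeks of age for 12 weeks and were killed at 20 weeks. Per kilogram the control diet held 2 mg of folic acid; its choline bitartrate was 0.3% and its methionine 0.4%. The CFD diet was deficient in choline and folate and held 0.17% methionine. Each group had 3 livers, each on its own one-colour Cy3 Agilent array. The labels do not say that the livers of a group were collected from separate animals, and a p-value here therefore covers only how far these samples vary, which could be technical.

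Lipid-associated macrophages are macrophages that gather where lipid is in excess, as in obese adipose tissue, atherosclerotic plaques and steatotic liver. Their best known surface receptor, TREM2, binds lipids and lipoproteins and has no signalling tail of its own. It signals through the adaptor TYROBP (DAP12), whose phosphorylated tail recruits the kinase SYK, and the cells then raise genes for lipid uptake, lysosomal breakdown and lipid storage. Each gene is described below by its role: receptor and adaptor first, then the lysosomal and membrane glycoproteins, the galectin, the tetraspanins and the lipid-handling proteins.

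The 3 slides each carried 1 control and 1 CFD liver with the same replicate number, so every difference could also be read within a slide. Control arrays had 75th percentiles of 365 to 439 in processed signal and CFD arrays of 404 to 670, with no saturated spot. Detection (well above background) reached 21698 to 26279 probes per control array and 23592 to 29055 per CFD array. All levels below are log2 of the signal divided by the array's own 75th percentile. On that scale the median difference over the 23488 tested probes was -0.12, against -0.33 when arrays were scaled to their median and -0.09 after quantile normalization. The probes called (limma, Benjamini-Hochberg adjusted p below 0.05) were 44.5% higher and the rest lower with the main scaling, and 31.0% higher with the median scaling. Hepatocyte markers, albumin among them, were well above background on all arrays. In these whole-liver samples, more cells of a type and more RNA per cell cannot be told apart.

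Of the 14 probes, 12 could be tested, since the 3 arrays of 1 group or of both detected them, and these 12 probes of 8 genes were all higher on the CFD diet at an adjusted p below 0.05 (limma). Among all tested probes 22.1% were called higher, 27.6% lower and 49.7% in either direction. The 3 CFD arrays lay above the 3 control arrays for all 12 probes, against 26.6% of all tested probes. The Gpnmb probes and the dimmer tested Cd9 probe entered through the CFD arrays alone, and for such probes the filter itself favours a higher call. When a probe had to be detected on all 6 arrays, 9 member probes were called higher. The log2 differences of the 8 genes, each read from its brightest probe, ran from 1.50 for Cd9 to 8.50 for Gpnmb, with a median of 3.52. The adjusted p-values of these 8 probes ran from 5e-05 to 0.00122. For all 8 genes the highest signal was on CFD array 3, and the within-slide difference was largest on slide 3. Fabp5 was the gene that could not be tested.

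**Figure D1:**
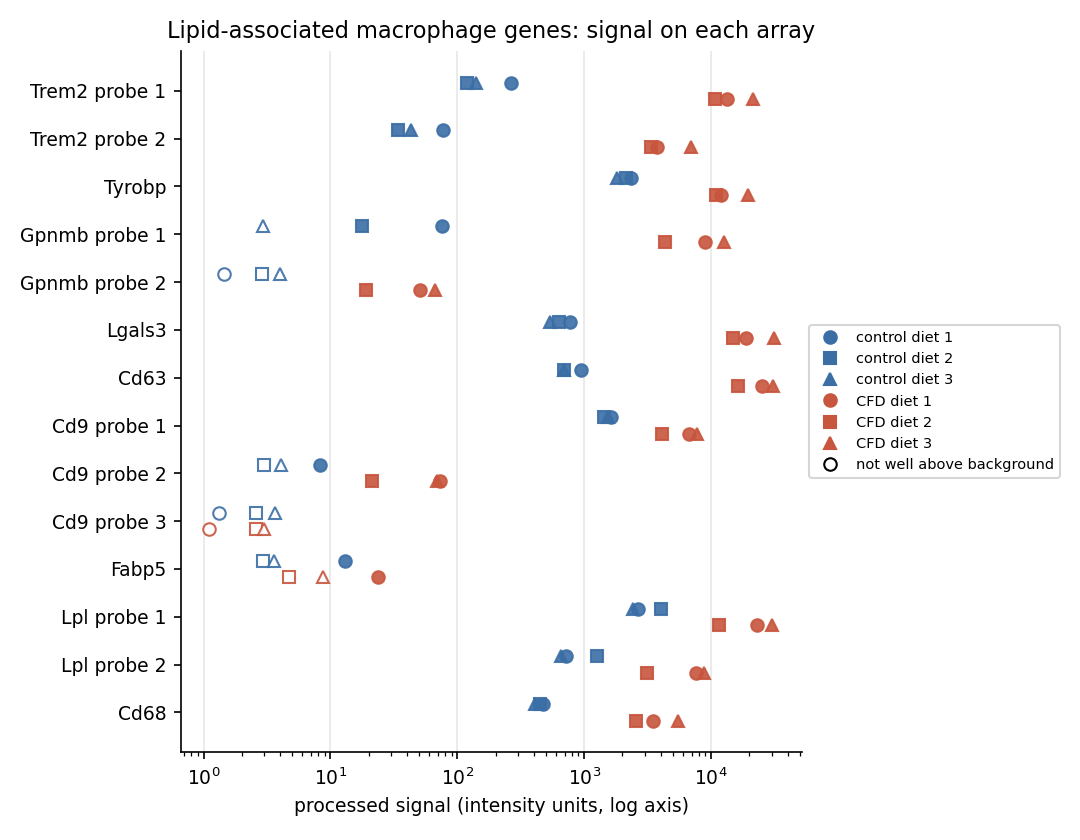
Processed signal (intensity units, log axis) of the 14 probes on each of the 6 arrays, with control livers in blue, CFD livers in red, a marker shape per replicate number, and open symbols where the spot was not well above background. The CFD arrays lie to the right of the control arrays for 12 probes, and the open symbols mark control 3 of the brighter Gpnmb probe, the controls of the dimmer one, controls 2 and 3 of Cd9 probe 2, all spots of Cd9 probe 3 and 4 Fabp5 spots.

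The promoters are shown for Trem2, which held 3 of the 4 motifs searched, and for Cd68, the other member with a TGANTCA match. RefSeq promoters (assembly GRCm38.p6) were at hand for 6 of the 9 genes: Trem2, Gpnmb, Lgals3, Cd63, Cd9 and Cd68. The lines give the 250 bases before the annotated start, 5′ to 3′ on the gene's strand, with motif matches in capitals. Trem2 is chr17:48346151-48346400 on the plus strand and Cd68 is chr11:69666171-69666420 on the minus strand.
Trem2: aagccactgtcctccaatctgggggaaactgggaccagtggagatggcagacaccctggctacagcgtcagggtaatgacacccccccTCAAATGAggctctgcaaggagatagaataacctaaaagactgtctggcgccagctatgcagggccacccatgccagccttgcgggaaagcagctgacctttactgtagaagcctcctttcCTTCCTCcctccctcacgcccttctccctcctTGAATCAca
Cd68: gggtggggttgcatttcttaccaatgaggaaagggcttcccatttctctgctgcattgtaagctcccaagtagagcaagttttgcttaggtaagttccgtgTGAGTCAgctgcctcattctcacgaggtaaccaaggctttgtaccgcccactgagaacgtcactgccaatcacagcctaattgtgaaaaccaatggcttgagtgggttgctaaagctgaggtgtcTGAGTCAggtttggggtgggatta

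A set of 4 short motifs was searched on both strands after the results were known. CACGTG is the E-box core of the CLEAR element of lysosomal genes, and TCANNTGA is a longer E-box form with any base at each N. GAGGAAG is a PU.1-type purine box, and TGANTCA is the AP-1 core. The first 2 motifs can overlap. TCANNTGA was found 162 bases before the Trem2 start, as TCAAATGA, and 224 bases before the Lgals3 start, as TCAGGTGA. Of the 32851 promoters in the table, 7.09% hold it. GAGGAAG was found 41 bases before the Trem2 start, as CTTCCTC in the line shown, and 60 bases before the Cd63 start, and 10.6% of all promoters hold it. TGANTCA was found 9 bases before the Trem2 start and 149 and 24 bases before the Cd68 start, against 6.75% of all promoters. CACGTG was in none of the 6 windows and in 6.02% of all promoters, and the Gpnmb and Cd9 windows held none of the 4 motifs. A match describes letters in this window and is no evidence of binding.

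Trem2, the lipid-sensing receptor, rose the most among the members that were well above background on all 6 arrays. Its brighter probe (chr17:46496865-46496924, build mm7 as in the file headers) read 263, 119 and 140 on control arrays 1, 2 and 3 and 13241, 10809 and 21488 on CFD arrays 1, 2 and 3. The groups stood far apart, with control 1 the highest control and CFD 3 the highest CFD array. The level went from -1.30 ± 0.49 to 4.72 ± 0.29 (SD, n = 3 each), a log2 difference of 6.02 ± 0.27 (SE; 95% interval 5.37 to 6.66), or 64.8-fold, with an adjusted p of 6.96e-05 (limma). Within slides 1, 2 and 3 the log2 difference was 5.16, 6.36 and 6.53. By size of rise this probe ranked 26 among the 23488 tested.

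The dimmer Trem2 probe (chr17:46496563-46496699, 166 bases from the brighter one) gave the same picture. Its signals were 76.9, 34.1 and 42.8 in controls and 3755, 3354 and 6929 in CFD livers. The log2 difference was 6.06 ± 0.29 (SE; adjusted p = 7.17e-05, limma), and the fits of the 2 probes differed by 0.05 on that scale (4.79 for the dimmer probe after normexp background correction). The array order within each group was alike for both probes, with the lowest signal on replicate 2 in both diets.

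Tyrobp, which encodes the adaptor that TREM2 and several other myeloid receptors share, was already bright on the control diet. Its probe (chr7:27358831-27360558, a split site that spans 1728 bases) read 2333, 2120 and 1799 in controls and 11876, 10971 and 19550 in CFD livers. The groups did not overlap, and the controls lay close together. The log2 difference was 2.26 ± 0.20 (SE), or 4.79-fold, with an adjusted p of 0.000348 (limma), and the within-slide differences were 1.85, 2.22 and 2.71. Set against its adaptor on the same arrays, Trem2 rose by 3.76 more on the log2 scale (3.30, 4.14 and 3.82 on slides 1 to 3; exact permutation p = 0.1, two-sided, the smallest that 3 against 3 arrays can give).

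Gpnmb encodes a lysosomal and cell-surface glycoprotein that macrophages make under lysosomal stress and lipid load. Its brighter probe (chr6:49016437-49016496) read 75.8, 17.7 and 2.94 on the control arrays, where replicate 3 was not well above background, and 8937, 4326 and 12635 on the CFD arrays. The controls were widely spread, with a control SD of 2.30 on the log2 scale against 0.41 on the CFD diet. The log2 difference was 8.50 ± 1.03 (SE; 95% interval 6.05 to 10.96), or 363-fold, with an adjusted p of 0.00119 (limma), and it ranked 3 by size of rise among all tested probes. The size rested on dim control spots: the log2 difference was 7.29 without control 3, 9.57 without control 1 and 6.22 after normexp background correction. Within slides the log2 differences were 6.39, 7.79 and 11.33.

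The dimmer Gpnmb probe (chr6:49017163-49017222, 667 bases away) was well above background only on the CFD diet. It read 1.46, 2.90 and 3.97 in controls and 50.8, 19.2 and 67.0 in CFD livers, so it gave a bound, at least 3.10-fold higher on the CFD diet. Such a bound sets the CFD mean against the lowest signal that counted as well above background on each control array, or the probe's own where higher. The fitted log2 difference was 3.52 (adjusted p = 0.00147, limma). It was 0.59 after normexp correction, with an adjusted p of 0.0622, and the call was lost.

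Cd68 encodes the mucin-like lysosomal glycoprotein used as a general stain for macrophages. Its probe (chr11:69746386-69746445) read 477, 447 and 408 in controls and 3508, 2534 and 5479 in CFD livers. The controls agreed closely, and even the lowest CFD array stood clear of them. The log2 difference was 2.58 ± 0.17 (SE), or 5.99-fold, with an adjusted p of 0.00014 (limma), and within slides it was 2.38, 2.36 and 3.01. Cd68 and Tyrobp changed by nearly the same amount, with Cd68 higher by 0.32 on the log2 scale (0.53, 0.13 and 0.30 within slides; exact permutation p = 0.1, two-sided).

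Lgals3 encodes galectin-3, a secreted and cytosolic sugar-binding protein of activated macrophages that is also made by bile duct epithelium. Its probe (chr14:42712515-42713331) read 770, 628 and 538 in controls and 18869, 14823 and 31101 in CFD livers. The separation was wide on all 3 slides, at log2 differences of 4.12, 4.42 and 5.12. The fitted log2 difference was 4.55 ± 0.20 (SE), or 23.4-fold, with an adjusted p of 6.42e-05 (limma).

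Cd63 and Cd9 both encode tetraspanins, small 4-pass membrane proteins of endosomes, exosomes and the cell surface, yet the sizes of their changes differed. The Cd63 probe (chr10:128413370-128413583) read 950, 697 and 686 in controls and 24913, 16338 and 30792 in CFD livers, a log2 difference of 4.46 ± 0.14 (SE), or 22-fold, with an adjusted p of 5e-05 (limma). Its within-slide log2 differences, 4.22, 4.40 and 4.75, were among the most even of the 8 genes. Cd63 moved with Lgals3: the difference between their changes was 0.09 on the log2 scale, with within-slide values of -0.10, 0.01 and 0.36 and overlapping groups (exact permutation p = 0.6, two-sided).

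The brightest Cd9 probe (chr6:125482335-125482394) read 1610, 1427 and 1544 in controls and 6644, 4086 and 7739 in CFD livers. Cd9 was thus bright in control liver too, and the log2 difference, 1.50 ± 0.12 (SE) or 2.84-fold, was the smallest among the 8 tested genes (adjusted p = 0.000227, limma; 1.55, 1.37 and 1.59 within slides). Cd63 rose by 2.95 more than Cd9 on the log2 scale (2.67, 3.03 and 3.16 within slides; exact permutation p = 0.1, two-sided). The other 2 probes named Cd9 were designed on cDNA clones whose sites lie 16525 and 35638 bases from the first. The nearer one (chr6:125498919-125498978) read 8.32, 3.00 and 4.11 in controls, of which only control 1 was well above background, and 73.4, 21.3 and 68.5 in CFD livers. Its log2 difference was 2.88 ± 0.40 (SE; adjusted p = 0.00194, limma) and 0.56 after normexp correction (adjusted p = 0.0452). The farther one (chr6:125518032-125518091), annotated in the opposite orientation to the brightest probe, was well above background on no array, at 1.33, 2.59 and 3.65 in controls and 1.11, 2.59 and 2.98 in CFD livers.

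Lpl encodes lipoprotein lipase, which frees fatty acids from circulating triglyceride and which lipid-laden macrophages make themselves. Its brighter probe (chr8:67361126-67361185) read 2658, 3996 and 2408 in controls and 23043, 11609 and 30063 in CFD livers. Slide 2 stood apart, with the highest control and the lowest CFD signal. The log2 difference was 2.31 ± 0.28 (SE), or 4.95-fold, with an adjusted p of 0.00122 (limma), and within slides it was 2.62, 1.39 and 2.91. The dimmer probe (chr8:67355909-67355968, 5158 bases away) read 714, 1255 and 650 in controls and 7541, 3122 and 8727 in CFD livers. Its log2 difference of 2.36 ± 0.35 (SE; adjusted p = 0.00229, limma) had the same low value on slide 2, 1.17, against 2.91 and 3.01 on slides 1 and 3.

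Fabp5, the epidermal-type fatty acid binding protein that carries fatty acids inside macrophages, was at the edge of detection. Its only probe (chr3:10022040-10022099) read 13.0, 2.96 and 3.62 in controls and 23.9, 4.73 and 8.72 in CFD livers. It was well above background on control 1 and CFD 1 alone, so it was not tested, and the groups overlapped. On slide 1, where both spots were measured, the log2 difference was 0.38. A fit without the filter on dim probes gave 0.48 ± 0.69 (SE; adjusted p = 0.636, limma). No rise brought Fabp5 well above background on all 3 CFD arrays, and a smaller change could not be measured at these signals.

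**Figure D2:**
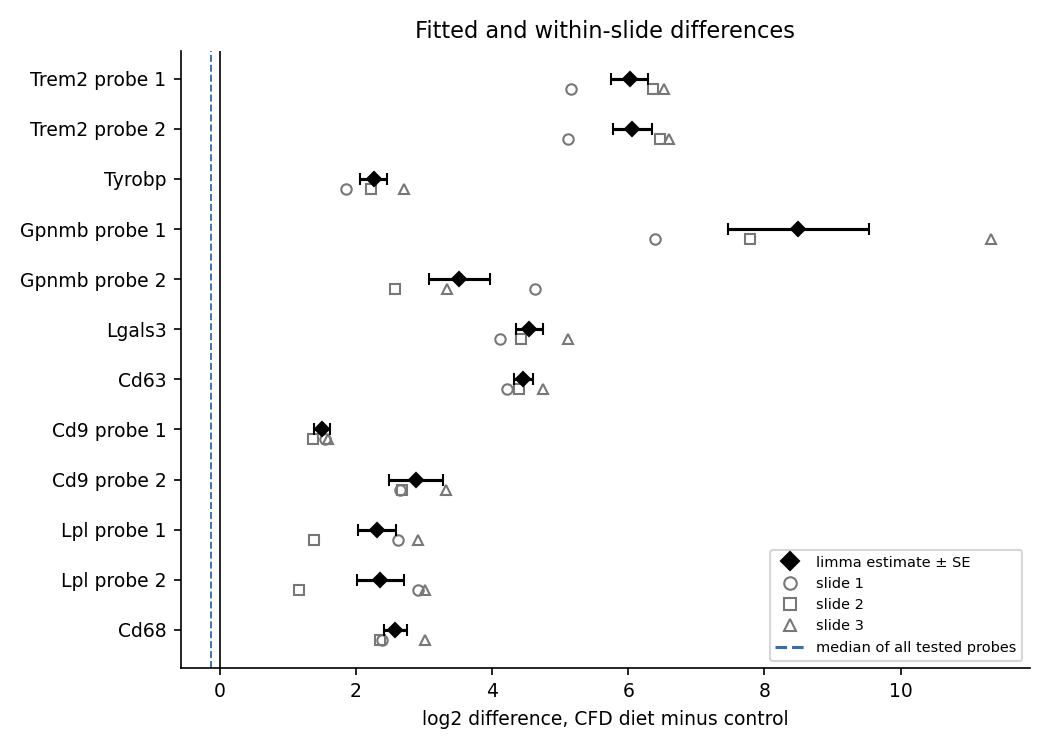
Log2 difference, CFD diet minus control, of the 12 tested probes: the limma estimate with its standard error (diamonds, bars) and the difference within each of the 3 slides (open symbols), with the median of all tested probes as a dashed line at -0.12. Every estimate and every within-slide value lies above 0, Gpnmb has the widest spread, and Lpl has its lowest values on slide 2.

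The order of the fitted changes, from largest to smallest, was Gpnmb, Trem2, Lgals3, Cd63, Cd68, Lpl, Tyrobp and Cd9. Neighbours in that order did not all stand apart: Lgals3 and Cd63 overlapped within slides, whereas Gpnmb exceeded Trem2 by 1.23, 1.43 and 4.80 within slides (2.49 on average; exact permutation p = 0.1, two-sided). The 4.80 rests on control 3, where Gpnmb was not well above background, and after normexp correction the fits differed by 0.65. The other neighbouring pairs were not tested. In all, 5 pairs were compared in this way, and a p of 0.1 is the smallest this design can give, so none could pass 0.05 before or after adjustment.

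General macrophage markers rose as well. Of the 18 listed, 17 were higher (limma). Among all genes, each read from its brightest tested probe, 23.6% were higher and 27.2% lower. Cd14, the lipopolysaccharide co-receptor, rose by 2.85 ± 0.15 (SE, log2), and Lyz2, the macrophage lysozyme, by 2.21 ± 0.22. The summed signal of the list, in units of each array's 75th percentile, was 103 to 142 in controls and 320 to 431 on the CFD diet, and the median log2 difference was 1.38. Their part in the members' changes was not tested beyond the comparison that follows.

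The members were set against the mean of the general macrophage markers on the same array in 2 ways: over the 14 well above background on all 6 arrays, and over all 18, a choice added after the values were seen. The 4 markers that only the second mean holds were dim on 1 or 2 control arrays and higher on the CFD diet, so the requirement itself lowers the rise of the mean. The mean of 14 rose by 1.12 on the log2 scale (1.04, 0.81 and 1.51 within slides) and the mean of 18 by 1.61 (1.55, 1.18 and 2.10). Relative to the mean of 14, Gpnmb rose by 7.38, Trem2 by 4.90, Lgals3 by 3.43, Cd63 by 3.34, Cd68 by 1.46, Lpl by 1.19, Tyrobp by 1.14 and Cd9 by 0.38. Relative to the mean of 18, the values were 6.89 for Gpnmb, 4.41 for Trem2, 2.94 for Lgals3, 2.85 for Cd63, 0.97 for Cd68, 0.70 for Lpl, 0.65 for Tyrobp and -0.11 for Cd9. So 7 members exceeded both means, with CFD arrays above control arrays (exact permutation p = 0.1 each, two-sided, the smallest possible here). Cd9 changed sign with the choice of markers and overlapped against the mean of 18 (exact permutation p = 0.5). Gpnmb itself was not well above background on control 3, a requirement that the 14 markers met. The size for Gpnmb rests on that array, with within-slide values of 5.35, 6.98 and 9.82 against the mean of 14. Its fitted log2 difference before subtraction was 8.50, and 6.22 after normexp correction. With each mean 8 comparisons were made.

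**Figure D3:**
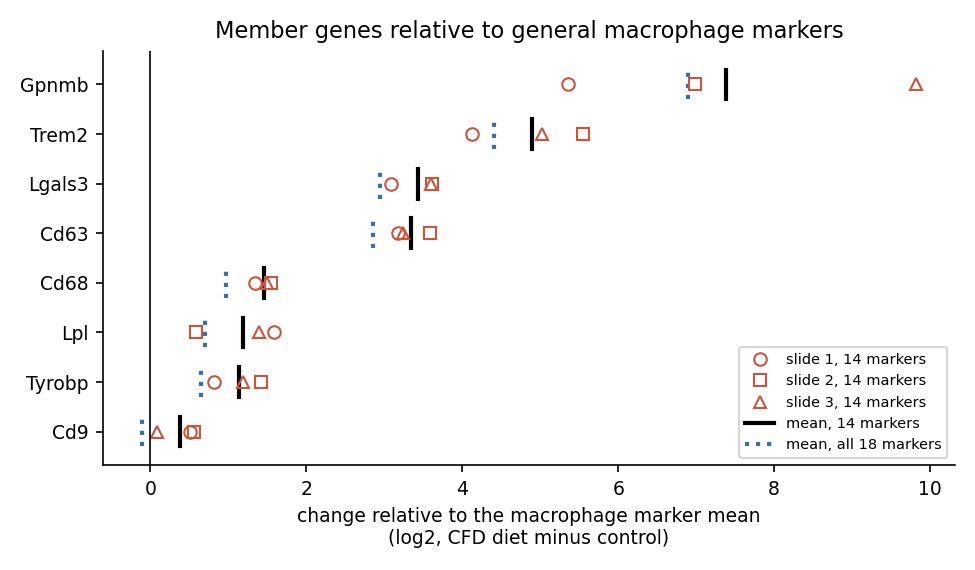
Change of each of the 8 tested members, CFD diet minus control, after subtracting the mean of general macrophage markers on the same array (log2): open symbols for the 3 slides and black bars for their mean with 14 markers, dotted blue bars for the mean with all 18. Gpnmb, at 7.38 and 6.89, and Trem2, at 4.90 and 4.41, lie farthest from 0, and Cd9, at 0.38 and -0.11, lies on both sides of it. Gpnmb was not well above background on control 3, which enters its slide 3 value.

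Markers of other liver cells also moved. The marker counts below stand beside 23.6% higher and 27.2% lower among all genes. Kupffer cell markers, those of the liver's resident macrophages, split into 2 higher and 5 lower of 10, and their summed signal was 145 to 194 in controls and 164 to 221 on the CFD diet. Complement gene C6 fell by 3.60 on the log2 scale, and Clec1b rose by 0.72. The count of lower Kupffer markers was 2 without any one of control 1, control 2, control 3, CFD 1 or CFD 3, and the count of higher ones was 1 without control 1, control 3, CFD 2 or CFD 3. Stellate cell and myofibroblast markers were higher for 9 of 9, with sums of 74.2 to 83.8 against 192 to 219, led by the collagens Col1a1 (3.64 ± 0.25, SE, log2) and Col3a1 (3.01 ± 0.24). Cholangiocyte markers, of the bile duct cells that also make galectin-3, were higher for 6 of 6, with sums of 2.35 to 3.07 against 8.05 to 10.3, and the keratins Krt19 (3.65 ± 0.35) and Krt7 (3.25 ± 0.46) among them. Their part in the members' changes was not tested.

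Adipocyte markers were read beside Lpl, which adipocytes also make. Of 5 listed, 3 were tested and 2 were higher, among them the lipid droplet gene Cidec (3.49 ± 0.56, SE, log2). The adipocyte sums were 4.05 to 27.8 in controls and 64.0 to 69.5 on the CFD diet. Nearly all of the CFD sums came from Cidec, at signals of 39523, 26971 and 45758. The defining genes were dim: Lep was well above background on no array, and Adipoq on 1 control array and no CFD array. Cfd, the complement factor adipsin, fell by 6.27 ± 2.09, and that call was lost when any array other than CFD 2 was left out. Neutrophil markers were higher for all 3 tested, led by S100a8 (3.85 ± 0.21) and S100a9 (3.72 ± 0.23), with sums of 1.32 to 2.25 against 18.7 to 24.8, while Ngp and Camp were well above background on no array. Of the 4 platelet markers tested, Pf4, which macrophages also make, rose by 3.00 ± 0.14, and the fall of Ppbp (-1.16 ± 0.38) was lost without control 2, control 3, CFD 2 or CFD 3. The platelet sums were 0.866 to 1.15 against 3.95 to 4.67, and most of the CFD sums came from Pf4, at signals of 2635, 1488 and 2874. Itga2b (0.08 ± 0.26) and Gp9 (-0.80 ± 0.29), named after their values were seen, were not called.

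Markers of hepatocytes, endothelium and lymphocytes held few rises, and the rises among dendritic cell markers did not hold throughout. Dendritic cell markers were called higher for 2 of 3 tested, with sums of 0.224 to 0.237 against 0.239 to 0.358, and for 0 or 1 whenever any one array was left out. Hepatocyte markers were lower for 5 of 9, with Serpina1e at -1.83 ± 0.42 (SE, log2) and sums of 2550 to 3020 against 1400 to 2360. Apoa1 stood at -1.04 ± 0.27, a call lost without control 2, control 3, CFD 1 or CFD 3, when dim probes were kept, and after quantile normalization (-0.39). The count of lower hepatocyte markers was 8 without CFD 2 and 2 or 3 without any other array. Endothelial markers were lower for 3 of 6, with Kdr at -1.14 ± 0.14 and Stab2 at -0.72 ± 0.11, and higher for Lyve1 (1.74 ± 0.18), with sums of 36.2 to 39.9 against 22.4 to 29.7. Of 5 lymphocyte markers tested, none was called higher, and their sums were 0.852 to 1.13 against 0.604 to 0.857.

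Other genes of the lipid-associated macrophage programme were mostly higher too. Of 27 tested, 23 were higher and none was lower (limma; 23.6% and 27.2% of all genes), with a median log2 difference of 1.20. Itgax, the integrin chain CD11c, read 65.5, 85.3 and 41.5 in controls and 2440, 1213 and 4121 in CFD livers, a log2 difference of 4.77 ± 0.36 (SE), though its other tested probe gave 1.60. Clec7a, the beta-glucan receptor Dectin-1, changed by 4.13 ± 0.22, from 1140, 809 and 726 to 19927, 13951 and 33599. Of the 4 that were not called (chosen for mention with their values known), the first was the apolipoprotein gene Apoe (-0.46 ± 0.29); the others were the cholesterol ester hydrolase gene Nceh1 (0.33 ± 0.19), the cholesterol exporter gene Abca1 (-0.22 ± 0.12) and the lysosomal hexosaminidase gene Hexa (0.07 ± 0.13). Lists can share genes: Lgals1, Cd36, Fabp4 and Atp6v0d2 stand here and in a list below.

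Of 18 tested genes listed around TREM2 and TYROBP signalling, 14 were higher and none was lower, with a median of 1.12. Among all genes 23.6% were higher and 27.2% lower. Not all of the list lies downstream: it also holds an adaptor gene (Hcst), a receptor gene (Csf1r) and the protease genes Adam10 and Adam17. Of these, named after their values were seen, Hcst (1.46), Adam10 (0.97) and Csf1r (0.69) were higher and Adam17 (0.38) was not called. Csf1r is also 1 of the general macrophage markers. The adaptor gene Blnk rose by 4.12 ± 0.25 (SE, log2; adjusted p = 0.000113, limma) and the kinase gene Btk by 1.63 ± 0.25, or by 0.96 after normexp correction. The count was 9 when dim probes were kept in the fit. Among the other TREM family members and TYROBP-paired receptors, 6 of 8 tested were higher and none was lower. Sirpb1a, an activating signal-regulatory receptor, rose by 2.89 ± 0.24 and Treml4, a TREM-like receptor, by 1.02 ± 0.19. Trem1 and Trem3, named after their values were seen, were well above background only on the CFD diet, at least 3.66-fold and at least 2.75-fold higher. The count was 3 when a probe had to be detected on all 6 arrays to enter the fit.

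Of 23 other tetraspanins tested, 8 were higher and 6 lower, with a median of 0.30; 23.6% and 27.2% of all genes were higher and lower. Tspan8, a tetraspanin of epithelia, rose by 5.31 ± 0.32 (SE, log2) and Tspan6 by 2.26 ± 0.21 (1.15 after normexp correction), whereas Tspan33 was lower at -1.68 ± 0.27 and Tspan12 at -1.12 ± 0.19. The count of lower tetraspanins was 3 with slide as a block and 3 without control 1, control 3, CFD 1 or CFD 3. 

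Of the genes listed with the other galectins, 3 of 8 tested were higher and 1 lower (23.6% and 27.2% of all genes were higher and lower). Lgals3bp (0.52 ± 0.15, SE, log2), named after its value was seen, is 1 of the 3 and encodes a galectin-3-binding protein, not a galectin. Lgals2 changed by 1.50 ± 0.39 (0.63 after normexp correction) and Lgals1 by 0.87 ± 0.28 on the log2 scale, while Lgals9 was lower at -0.98 ± 0.21. The rises of Lgals2 and Lgals1 did not hold throughout. The count of higher genes in the list was 0 without control 2 or CFD 3 and 1 without control 1 or control 3. After quantile normalization that count was 5. Lgals3, at 4.55, lay above all of them in the fit, although no test of that difference was run.

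Of the other fatty acid and retinoid binding proteins, 4 of 6 tested were higher and none was lower, against 23.6% and 27.2% of all genes. Another 7 were not tested because their probes were dim. Fabp7, the brain-type family member, rose by 2.06 ± 0.16 (SE, log2), and Fabp4, the form of adipocytes and macrophages, by 1.78 ± 0.14. Fabp5 was thus too dim to test in a family where the measurable macrophage form rose.

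Among the partners of lipoprotein lipase, 2 of 16 tested were higher, 6 lower and 8 not called (23.6% and 27.2% of all genes were higher and lower), with a median of -0.39. Apoc2, the apolipoprotein that activates the enzyme, rose by 1.00 ± 0.16 (SE, log2; 1.60 after quantile normalization), and Vldlr, the very low density lipoprotein receptor, by 1.95 ± 0.26. Lmf1, the maturation factor the lipase needs to fold, was lower at -2.05 ± 0.40, and Lipc, hepatic lipase, at -1.90 ± 0.31. Gpihbp1, which carries the enzyme on capillary endothelium, stood at -0.08 ± 0.20 and was not called (adjusted p = 0.769, limma). The count of lower partners was 10 without CFD 2, 2 without control 3 or with dim probes kept in the fit, 3 without control 2 or CFD 3, and 3 after quantile normalization or with slide as a block.

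For Gpnmb, the MITF and TFE transcription factors that drive lysosomal genes and partners of the protein were listed with Pmel, Atp6v0d2, Acp5 and Ctsk. Of 10 tested, 6 were higher and 3 lower, against 23.6% and 27.2% of all genes. With dim probes kept in the fit the counts were 4 and 1, and after normexp correction 4 and 2. The factors, named after their values were seen, were split. Mitf (0.83 ± 0.20, SE, log2) and Tfec (1.20 ± 0.13) were higher, Tfe3 (-0.40 ± 0.12; adjusted p = 0.032, limma) was lower and Tfeb (-0.30 ± 0.14) was not called. Signals of Mitf were low, at 25.0, 22.4 and 22.8 in controls and 75.3, 29.7 and 76.0 in CFD livers. Ctsk, the collagen-cleaving cathepsin of osteoclasts and macrophages, rose by 4.12 ± 0.22 (SE, log2; 2.38 after normexp correction), and Cd44, a hyaluronan receptor that binds GPNMB, by 1.91 ± 0.26. Sdc4, a heparan sulphate proteoglycan that GPNMB can engage, was lower at -1.12 ± 0.23. Acp5, an osteoclast phosphatase, was lower at -0.62 ± 0.14, a call lost after quantile normalization and when dim probes were kept. For Cd68, 4 of 10 lysosomal membrane glycoproteins and scavenger receptors were higher and 2 lower, with a median of -0.27 (23.6% and 27.2% of all genes were higher and lower). Cd36, the fatty acid scavenger receptor, rose by 1.75 ± 0.16. The calls of Marco (1.77 ± 0.54), Scarb2 (-0.48 ± 0.13) and Cd163 (-2.02 ± 0.70) were each lost when control 3 or CFD 1 was left out, and Cd163 stood at -1.12 without CFD 3. The count of lower genes was 0 without control 3, 1 without control 1, control 2, CFD 1 or CFD 3, and 3 without CFD 2.

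**Figure D4:**
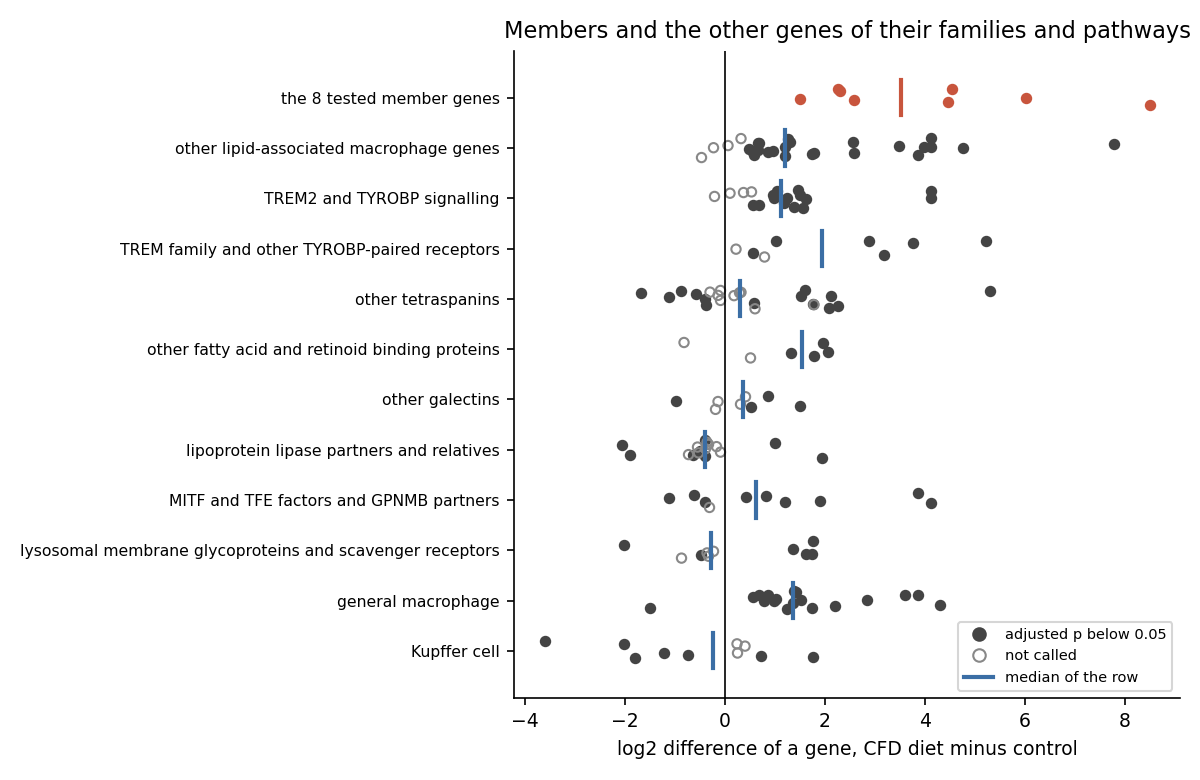
Log2 difference, CFD diet minus control, of the 8 tested member genes (red, top row) and of the tested genes of each list of relatives and of 2 marker lists (1 point per gene, brightest tested probe; filled where the adjusted p was below 0.05), with the median of each row as a bar. The member median is 3.52, the other lipid-associated macrophage genes have a median of 1.20, and the tetraspanins, lipase partners and Kupffer cell markers spread to both sides of 0.

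The genes whose 6-array pattern was most like the brighter Trem2 probe were found by Pearson correlation of log2 levels over the 20931 probes well above background on all arrays. S100a11, a calcium-binding S100 protein, ranked 1 and the other Trem2 probe ranked 2, both at r = 0.9998. The next non-members were Atp6v0e2 (0.9997), a subunit of the proton pump of lysosomes, and Syngr1 (0.9997), a vesicle protein. Zfp975 (0.9996), a zinc finger gene, and Anxa1 (0.9992), the phospholipid-binding annexin A1, followed. Syngr1 had the largest of these changes, 5.83 ± 0.25 (SE, log2), and Zfp975 the smallest, 1.58 ± 0.13, so likeness in pattern did not mean likeness in size. Among the members, Cd63 ranked 38, Lgals3 91, Cd68 337, Cd9 353, Tyrobp 543 and the Lpl probes 2108 and 2694, at r = 0.943 and 0.919. The 6 arrays fall into 2 diet groups and share the same extracts, so any gene with a clear step between the diets scores high: 340 probes (1.62%) reached 0.99 and 3031 (14.5%) reached 0.9. The ranks are a description over 6 arrays and carry no test.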

How the data were processed

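RNA of 6 livers was hybridised to one-colour arrays. The deposited intensity values (processed signals) were background-subtracted and detrended within each array by the authors with Agilent Feature Extraction 10.5.1.1, per the file headers; the submitters' processing notes give version 10.7. The headers place probes on mouse build mm7, for which no annotation was used here. Signals were divided by each array's 75th percentile and taken to log2; outlier spots were left out, and dim probes not well above background on all 3 arrays of a group were not tested. Differences were fitted by probe with limma 3.58.1 in R 4.3.3, with Benjamini-Hochberg adjustment over all 23488 tested probes and a threshold of 0.05; the code was tested on simulated data. Within-array comparisons used exact permutation tests over arrays. The members and the gene lists were chosen with earlier results of these data known. Beside all members, the genes named from a list are its 2 called genes with the largest change in each direction among those well above background on all 6 arrays, and any gene called against the majority of its list; some list genes are not reported here. The lists cover relatives and partners of the members and markers of macrophages, Kupffer cells, hepatocytes, stellate cells, cholangiocytes, endothelium, adipocytes, platelets, neutrophils, dendritic cells and lymphocytes. Gene names came from the files, updated through RefSeq (GRCm38.p6), which named 13555 of the 15915 genes tested. Each column of the deposited value table followed the scanner intensities of another replicate of its own group (rank correlation 1.0), with 75th percentiles near 1000. The control columns had medians of 67.98, 61.49 and 67.63 and the CFD columns of 72.67, 73.88 and 80.59; how it was scaled is not stated; it was used only as an alternative. Other alternatives were normexp background correction (offset 50), quantile and median scaling, other filters, the trend and robust setting, 1 probe per gene, slide as a replicate block, and leaving out each array.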

Additional observations from a re-analysis of the deposited data

How the results depend on the processing

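Over 15 alternative settings, 173 values of the member probes were recomputed: 172 kept their direction and their side of the threshold, none reversed, and 1, the dimmer Gpnmb probe after normexp correction, lost its call at a log2 difference of 0.59 (adjusted p = 0.0622, limma). Leaving out each array in turn gave log2 differences of 5.85 to 6.30 for Trem2, 7.29 to 9.57 for Gpnmb, 4.39 to 4.70 for Lgals3, 4.37 to 4.55 for Cd63, 2.43 to 2.70 for Cd68, 2.16 to 2.59 for Lpl, 2.14 to 2.44 for Tyrobp and 1.45 to 1.55 for Cd9. The same-numbered arrays shared a slide but did not deviate together (correlations of 0.099, -0.081 and 0 over 23425 probes). With slide as a replicate block, all 12 member probes stayed higher, with adjusted p-values from 0.00148 to 0.0125, and 4796 probes were higher and 5498 lower overall. The count of all lower probes, 6477, was 3661 without the filter on dim probes and 4164 (without control 3) to 7033 (without CFD 2) with an array left out, and 4295 without CFD 3; the cause was not tested. Signal near background limits what can be said of Fabp5 and of the sizes for Gpnmb and the dimmer Cd9 probes. Against the macrophage marker mean, Cd9 went from 0.38 with 14 markers to -0.11 with all 18, an alternative added after the data were seen. With 3 arrays a group, their number limits the precision.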
